A study of Mus musculus with 18 samples.

Results

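The net change in gene expression after a week was measured in MC3T3-E1 cells, a preosteoblast line from mouse skull bone, by setting 6 libraries labelled 7d against 3 libraries labelled 0h. The members were chosen by the sample titles: both samples at 7d of each of 3 stably expressed short hairpin constructs, and sample 2 at 0h of each, which makes 9 of the 18 libraries of the series. The constructs were shScramble, the control, whose cells are labelled WT, and shRcor2-18 and shRcor2-20, whose cells are labelled RCOR2 knockdown. Rcor2 encodes a corepressor of the CoREST family and lies outside the genes used, so its level was not analysed here and the knockdown labels were not checked. All cells were MC3T3-E1, and the osteogenic medium of the study held 10 nM dexamethasone, 50 µg/ml ascorbic acid and 5 mM Na-β-glycerophosphate. The titles give 7d, while the protocols describe other days in that medium, so the times stand here as titled. The labels do not say whether the cells of a construct were a pool or a clone, or whether each sample came from a culture of its own.

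Only genes whose row names match the reads were used, namely the protein-coding genes in gene order from Mefv to Cbr3 on chromosome 16 and from Ighmbp2 to Gpha2 on chromosome 19. These stretches held 744 of the 21313 protein-coding rows, 610 on chromosome 16 and 134 on chromosome 19, and 489 of them had enough reads to be tested (373 and 116). The other 255 were not tested, and 124 genes had no read in any of the 15 libraries fitted. Levels are CPM, the count of a gene scaled to a fixed total over these genes, so a change is relative to the other genes of the stretches, and CPM compares a gene between libraries but not one gene with another of different length. Library totals ran from 3504808 to 4639679 counts at 7d and from 3913874 to 4541758 at 0h, and the stretches took 11.3% to 12.5% of the counts in the 15 libraries fitted. In the 3 left-out 0h libraries of sample 1 they took 19.2% to 19.8%. The 6 libraries at 24h entered the fit and show how far a change had gone by then.

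When osteoblast precursors stop dividing and mature, they lay down and remodel collagenous matrix, change their cell contacts and lower genes of DNA synthesis. Signals through Wnt receptors, Notch, BMP, cytokines and the glucocorticoid receptor, which dexamethasone binds, are known to steer this course. Transcription factors of the AP-1, Ets, Runt and Snail families are active in dividing or migrating mesenchymal cells. The osteoblast genes most often used to follow mineralisation lie outside the stretches and were not analysed here. Of the 11 mesenchymal and osteoblast lineage markers that do lie there, all 11 passed the filter on low counts, with summed levels of 78004 to 98564 CPM at 0h and 103990 to 123720 CPM at 7d. They did not move together: 3 were called higher (Adamts1, Lrp5 and Fstl1), 5 were called lower (Efemp2, Ccdc80, Snai2, Alcam and Adamts5) and 3 were not called. Adamts1 alone went from 1821 to 4447 CPM to 21535 to 42778 CPM.

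Over the week 55 genes rose and 67 fell, which is 122 of 489 (24.9%) at an adjusted p under 0.05, with 11.2% of all tested genes called higher and 13.7% called lower. More than 2-fold changes made up 21 of the rises and 16 of the falls, and the median change of all 489 genes was 0.02 on the log2 scale. In 106 of the 122 genes the 6 libraries at 7d did not overlap the 3 at 0h, as was so for 157 of all tested genes (32.1%). Both 7d libraries of each construct lay on the same side of that construct's 0h library in 117 of the 122, and in 218 of all 489 tested genes (44.6%). On chromosome 16 the calls were 47 higher and 40 lower, and on chromosome 19 they were 8 higher and 27 lower. Without the 0h library of shScramble 64 genes were called and without that of shRcor2-18 79, so the count rests on few libraries at 0h.

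The week was split into its first day and the rest, where the first step has 3 libraries against 6 and the second 6 against 6. Between 0h and 24h 28 genes were called (5.73%), 12 higher and 16 lower, and between 24h and 7d 83 genes were called (17%), 42 higher and 41 lower. With the sample number as a replicate block these counts were 57 and 154. The net change shares its 0h libraries with the first step and its 7d libraries with the second, so the steps are shown beside it as its parts and not as a second line of evidence.

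Genes were sorted by the share of the fitted weekly log2 change that was present at 24h. A gene was called gradual when that share was 25% to 75%, early when it was above that without overshooting, and late between -25% and 25%. The first day is a small part of the week, so a change at an even pace on the log2 scale would be classed late. The names thus describe the share at 24h and not a constant pace. The median share at 24h was 43.6% in the gradual rises and 46.3% in the gradual falls. Of the 122 genes, 56 (45.9%) were gradual, 24 rising and 32 falling, 28 were early and 36 were late. A further gene, Ifngr2, a chain of the interferon gamma receptor, overshot at 24h, and Arhgap31 first moved the other way. The medians of the 3 time points were in order in all 24 gradual rises and in 30 of the 32 gradual falls. That order is largely set by the rule for gradual, which places the fitted 24h level between the other 2. For 8 gradual genes each step was also called on its own, 1 rise (Adcy9) and 7 falls (Pkp2, Lrrc15, Etv5, Phldb2, Runx1, Adamts5 and Efemp2). Libraries that did not overlap at either step were found for 10 of all tested genes (2.04%), and 9 of these were gradual: Pkp2, Lrrc15, Etv5, Phldb2, Runx1, Efemp2, Trap1, Col8a1 and Hacd2. Without the 0h library of shScramble the gradual count was 33.

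**Figure D1:**
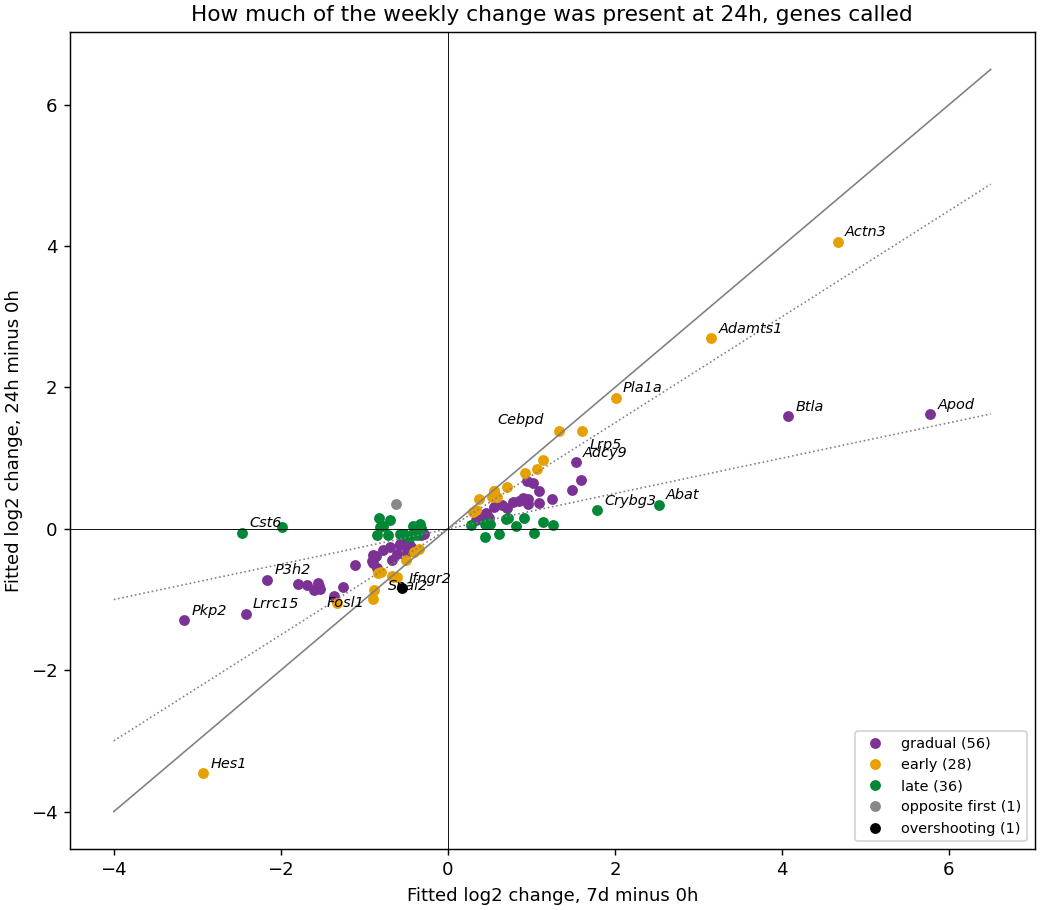
Fitted log2 change from 0h to 24h (vertical axis) against that from 0h to 7d (horizontal axis) for the 122 genes called at 7d versus 0h, coloured by course with the number of genes in brackets. The solid line marks a change complete at 24h and the dotted lines mark 25% and 75% of it. Apod, Btla, Pkp2 and Lrrc15 lie between the dotted lines, Actn3 and Adamts1 near the solid line, and Abat, Crybg3 and Cst6 near the horizontal axis.

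The gradual gains were led by 2 genes of low starting level. Apod encodes apolipoprotein D, a secreted lipid carrier of the lipocalin family that is known to accumulate in cells leaving the cycle. At 0h it stood at 33.2 CPM in shScramble, 90 in shRcor2-18 and 76.8 in shRcor2-20. At 24h the lowest, median and highest of the 6 libraries were 84, 182 and 324 CPM, and at 7d they were 1116, 3562 and 6021 CPM. Every 7d library was thus above every 0h and 24h library, with a fold of 54.7 and a log2 change of 5.77 ± 0.80 (SE), adjusted p = 0.00113. The first step was 1.62 and was not called (adjusted p = 0.281), and the second was 4.15 (adjusted p = 0.00157), so 28% of the log2 change was present at 24h. In bulk RNA a change in how many cells express a gene and a change in RNA per cell cannot be told apart, for Apod as for each gene below.

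Btla, an inhibitory receptor known from lymphocytes, ran from 13.4 to 29.3 CPM at 0h through 25.4, 76.5 and 91.8 CPM at 24h to 160.0, 379 and 576 CPM at 7d (lowest, median and highest), a log2 change of 4.07 ± 0.67 (SE), adjusted p = 0.00256. Its 24h libraries overlapped those at 0h, and its 7d libraries lay above both. Cd200, a membrane glycoprotein that restrains myeloid cells, held 780.3 CPM in shScramble, 802 in shRcor2-18 and 775 in shRcor2-20 at 0h, and its 7d libraries gave 1138, 2429.7 and 3697 CPM, a log2 change of 1.60 ± 0.49 (SE), adjusted p = 0.0447. The 7d range of Cd200 was wide, and the call was lost when any one of the 0h libraries was left out.

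Smaller gains, with libraries closer to each other, followed. Col8a1, a chain of the short-chain collagen type VIII, stood at 4995 CPM in shScramble, 6093 in shRcor2-18 and 7026 in shRcor2-20 at 0h, at 7408 to 9792 CPM at 24h and at 9871, 14060.0 and 14349 CPM at 7d, so that no time point overlapped the next (log2 change of 1.09 ± 0.15 (SE), adjusted p = 0.000702). Hacd2, an enzyme of very long chain fatty acid elongation, rose in the same order from 1005 to 1115 CPM through 1233 to 1495 CPM to 1824 to 2793 CPM, with a log2 change of 1.09 ± 0.16 (SE). Adcy9, an adenylyl cyclase that makes the second messenger cyclic AMP, went from 211 CPM in shScramble, 348 in shRcor2-18 and 443 in shRcor2-20 to 499 to 833 CPM at 24h and 818 to 1082 CPM at 7d. Its 24h and 7d ranges overlapped slightly, while both lay above 0h, and its log2 change was 1.53 ± 0.19 (SE). Trap1, a mitochondrial chaperone of the HSP90 family, shows how small an ordered gain could be, with 4709 to 4793 CPM at 0h, 5449.6 to 6076 CPM at 24h and 6401 to 7845 CPM at 7d for a log2 change of 0.56 ± 0.10 (SE).

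Among the other gradual gains were genes of the contractile and junctional apparatus and of secreted signalling. Mylk, the kinase that phosphorylates myosin light chains, moved from 3244 CPM in shScramble, 4728 in shRcor2-18 and 4866 in shRcor2-20 to 7035 to 9102 CPM at 7d, a log2 change of 0.96 ± 0.10 (SE), adjusted p = 9.23e-05. Fstl1, a secreted glycoprotein that binds BMP ligands, had a log2 change of 0.86 ± 0.21 (SE), and its call was lost without the 0h library of shScramble. Ppl, a plakin that links intermediate filaments to junctions, rose from 37.3 to 50.8 CPM to 92.8 to 195 CPM. Doc2g, Nxpe3 and Snx29 completed the 10 largest, with log2 changes of 1.24, 1.01 and 0.96. Exons of Doc2g overlap another annotated gene over 63.5% of their length, so its reads cannot be told apart from those of its neighbour. Socs1, an inhibitor of JAK and STAT signalling, rose by 0.71, and the whole set of 24 ran from 0.34 to 5.77 with a median of 0.93.

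**Figure D2:**
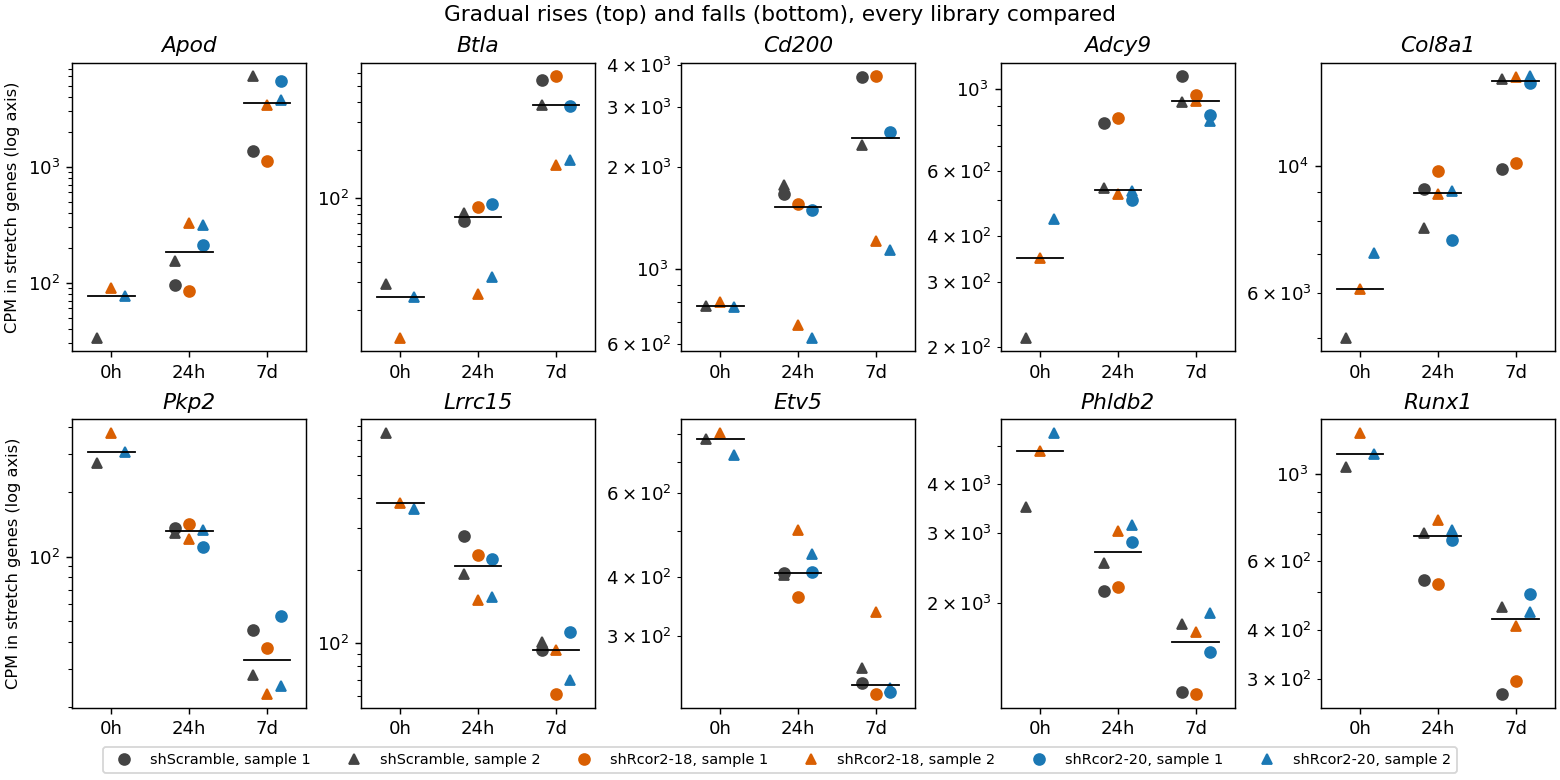
Levels of 5 gradual rises (top row) and 5 gradual falls (bottom row) in the 15 libraries fitted, in CPM of the stretch genes on log axes that differ between panels. Each point is 1 library, with colour for the construct and shape for the sample number, and lines are medians of a time point. In Apod, Btla and Cd200 the 7d points form 3 pairs that cross constructs, and in all 5 falls the 3 time points stand apart.

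The gradual losses were led by Pkp2, which encodes plakophilin 2, an armadillo protein of desmosomes and of other cell contacts. At 0h it stood at 272 CPM in shScramble, 377 in shRcor2-18 and 305 in shRcor2-20. At 24h the libraries gave 111, 131 and 142 CPM and at 7d 22.9, 32.9 and 53.2 CPM (lowest, median and highest). No time point overlapped another, and the log2 change of -3.16 ± 0.25 (SE), adjusted p = 2.51e-05, was made of -1.29 by 24h and -1.86 after it.

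Lrrc15, a leucine-rich repeat membrane protein known from activated mesenchymal cells, held 751 CPM in shScramble, 381 in shRcor2-18 and 362 in shRcor2-20 at 0h, 150.4, 208 and 277 CPM at 24h and 60.7, 93.4 and 110.3 CPM at 7d. The 3 time points did not overlap, shScramble at 0h stood well above both hairpins, and the change was a log2 change of -2.42 ± 0.23 (SE), adjusted p = 6.06e-05. P3h2, a prolyl hydroxylase that modifies fibrillar and basement membrane collagens, held 1001 CPM in shScramble, 2102 in shRcor2-18 and 2024 in shRcor2-20 at 0h and 201, 297 and 590.0 CPM at 7d, a log2 change of -2.16 ± 0.40 (SE), adjusted p = 0.00515. Its 24h libraries, at 653 to 1599 CPM, overlapped those at 0h and lay above those at 7d. Phldb2, a cortical protein that anchors microtubules near adhesion sites, fell in 3 separate ranges, 3489 to 5395 CPM, 2141 to 3156 CPM and 1175 to 1892 CPM, a log2 change of -1.56 ± 0.16 (SE), adjusted p = 9.23e-05.

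Of the transcription factors, Etv5, Runx1 and Fosl1 had the largest gradual falls. Etv5, an Ets factor induced by fibroblast growth factor and ERK signalling, held 780.3 CPM in shScramble, 806 in shRcor2-18 and 722 in shRcor2-20 at 0h, 364, 409 and 502 CPM at 24h and 226, 237 and 337 CPM at 7d, with ranges that did not overlap (log2 change of -1.60 ± 0.15 (SE), adjusted p = 5.8e-05). Runx1, the Runt factor known from blood stem cells and early skeletal progenitors, ran from 1042 to 1273 CPM through 523 to 762 CPM to 273 to 494 CPM, also without overlap (log2 change of -1.54 ± 0.19 (SE), adjusted p = 0.000239). Fosl1, the AP-1 subunit FRA-1 that is known to promote bone matrix formation, held 1424 CPM in shScramble, 1501 in shRcor2-18 and 1330.2 in shRcor2-20 at 0h and 278, 534 and 695 CPM at 7d, a log2 change of -1.53 ± 0.28 (SE), adjusted p = 0.00363. Its 24h libraries, at 578 to 1188 CPM, overlapped those at 7d, and 55.8% of its log2 change was present by then. Exons of Fosl1 overlap those of Ccdc85b on the other strand over 57.2% of their length, and whether the counting used strand is not given in the labels. The row of Ccdc85b also fell, from 1209 to 1582 CPM to 701 to 1075 CPM, a log2 change of -0.67 ± 0.17 (SE), and the reads that fall where these 2 genes overlap cannot be told apart.

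Snai2, the Snail family repressor known as Slug, was lower at 7d by a smaller margin and had mostly fallen by 24h. It held 1490.2 CPM in shScramble, 2142 in shRcor2-18 and 2136 in shRcor2-20 at 0h, 850.3, 1280.2 and 1654 CPM at 24h and 727, 1151 and 1421 CPM at 7d, and the 7d libraries lay below those at 0h with little gap (log2 change of -0.80 ± 0.25 (SE), adjusted p = 0.042). Its course was early, with 76.5% of the log2 change present at 24h, next to the boundary of the gradual class. In 17 of 29 other settings Snai2 lost its call. In the left-out 0h libraries of sample 1, scaled over all 18 libraries, it stood at 1062, 989.9 and 1793 CPM, and the first 2 of these values lie inside the 7d range on that scale, 737 to 1433 CPM.

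Further gradual losses concerned surface and secreted proteins. Alcam, an adhesion molecule of the immunoglobulin superfamily found on mesenchymal progenitors, held 1058 CPM in shScramble, 785 in shRcor2-18 and 847 in shRcor2-20 at 0h and 100.2, 259 and 443 CPM at 7d, a log2 change of -1.79 ± 0.44 (SE), adjusted p = 0.019. Without the 0h library of shScramble, or that of shRcor2-18, it lost its call. Adamts5, a metalloprotease that cleaves aggrecan, ran from 1506 to 1901 CPM to 575 to 758 CPM, a log2 change of -1.37 ± 0.13 (SE), adjusted p = 5.8e-05, with 69% of the log2 change present at 24h. In the left-out 0h libraries of sample 1 it stood at 710.3, 618 and 1873 CPM, and the first 2 of these values lie inside its 7d range of 587 to 765 CPM on the scale of all 18 libraries. Cnih2, a cargo adaptor of the cornichon family, fell by 1.69, and Clcf1, a cytokine of the interleukin 6 family, fell by 1.11 on the log2 scale. Efemp2, fibulin 4, which is needed to assemble elastic fibres, fell in 3 separate ranges, 25369 to 34139 CPM, 18986 to 23159 CPM and 15917 to 18277 CPM, with a log2 change of -0.85 ± 0.10 (SE), adjusted p = 0.000185. The 32 losses ran from -3.16 to -0.29 with a median of -0.85, and 12 of them were over 2-fold.

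**Figure D3:**
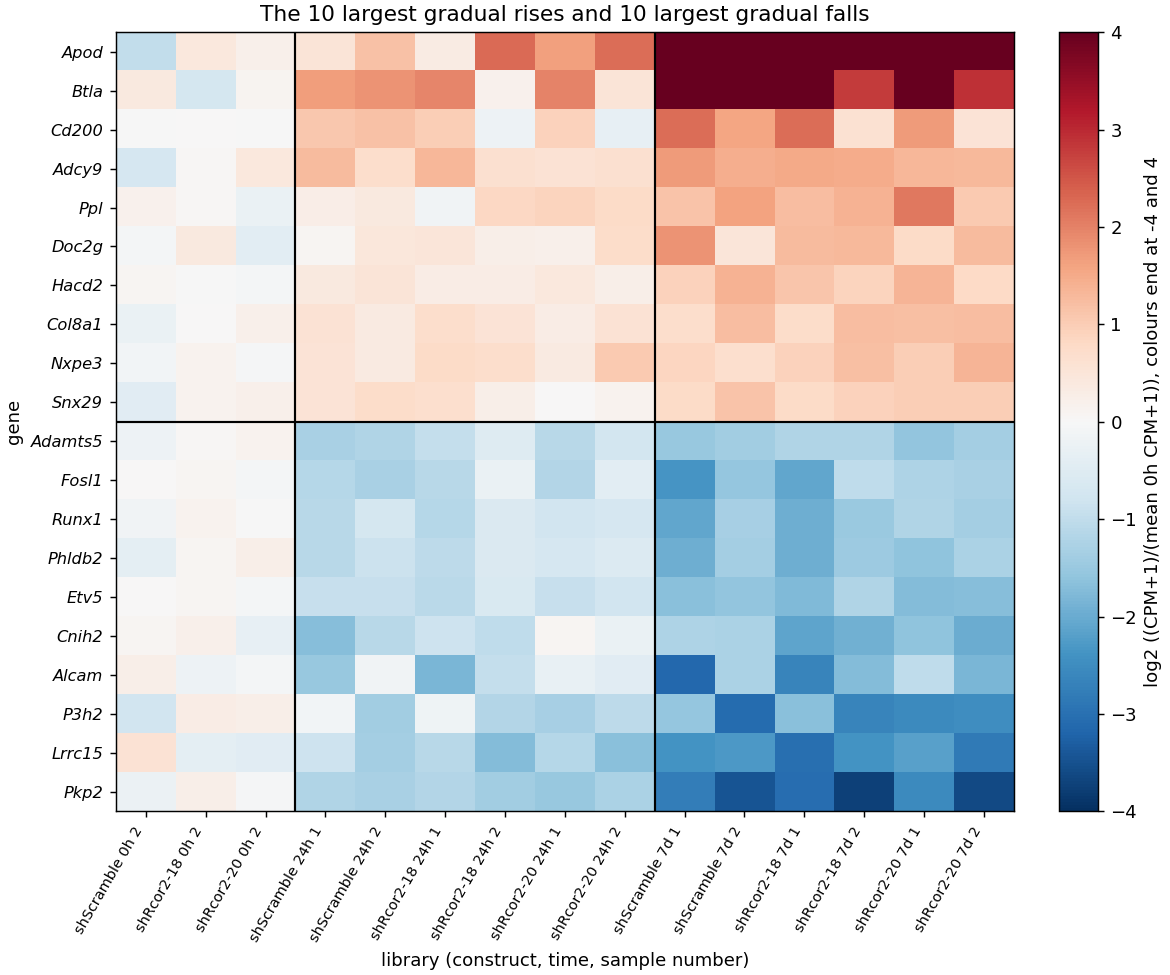
Level of the 10 largest gradual rises and 10 largest gradual falls in each of the 15 libraries, as the log2 ratio of CPM plus 1 to the mean of the 3 libraries at 0h plus 1. Columns are libraries by time (vertical lines) and rows are genes, and the colours end at -4 and 4, a limit that Apod passes in all 6 libraries at 7d. The 24h columns are paler than the 7d columns for most genes, with Cd200 and Btla near their 0h colour in both hairpins' sample 2.

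The stretch of DNA before the start of 4 of these genes is shown to set what is known of 2 factors that themselves declined beside genes that moved gradually. AP-1 dimers, of which Fosl1 is a part, are known to bind TGANTCA, and Snai2 to bind the E-box CAGGTG. Each motif was looked for on both strands, in the 250 bases before the first listed start, and no match of one overlapped a match of the other in the windows shown. The sequences are from RefSeq on GRCm38.p6, on the minus strand, written 5′ to 3′, with matches in capitals: Apod at chr16:31314809-31315058, Lrrc15 at chr16:30283255-30283504, Alcam at chr16:52453082-52453331 and Runx1 at chr16:92826075-92826324.
Apod: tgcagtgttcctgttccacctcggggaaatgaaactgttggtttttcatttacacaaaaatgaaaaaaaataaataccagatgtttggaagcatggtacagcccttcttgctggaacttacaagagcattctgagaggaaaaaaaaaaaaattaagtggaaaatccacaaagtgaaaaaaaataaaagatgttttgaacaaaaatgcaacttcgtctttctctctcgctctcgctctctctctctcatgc
Lrrc15: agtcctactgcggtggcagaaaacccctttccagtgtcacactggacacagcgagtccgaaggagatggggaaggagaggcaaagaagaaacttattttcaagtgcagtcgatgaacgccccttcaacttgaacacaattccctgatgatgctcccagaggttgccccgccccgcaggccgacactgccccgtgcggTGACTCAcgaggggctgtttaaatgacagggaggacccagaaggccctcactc
Alcam: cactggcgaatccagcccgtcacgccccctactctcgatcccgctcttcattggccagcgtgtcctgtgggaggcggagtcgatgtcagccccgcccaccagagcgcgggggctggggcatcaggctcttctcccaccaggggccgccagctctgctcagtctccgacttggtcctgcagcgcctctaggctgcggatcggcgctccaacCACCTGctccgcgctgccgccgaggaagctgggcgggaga
Runx1: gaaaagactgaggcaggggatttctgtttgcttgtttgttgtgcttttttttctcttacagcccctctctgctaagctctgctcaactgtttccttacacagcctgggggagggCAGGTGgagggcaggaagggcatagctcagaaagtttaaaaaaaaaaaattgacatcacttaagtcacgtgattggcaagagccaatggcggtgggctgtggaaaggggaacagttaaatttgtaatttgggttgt

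The Lrrc15 window held TGACTCA, the Alcam and Runx1 windows held the E-box, as CACCTG and CAGGTG, and neither motif was in the Apod window. Lrrc15, Alcam and Runx1 all fell. Of windows not shown, the E-box was in those of Phldb2, a fall, and Col8a1, a rise. Those of Etv5, Btla, Cd200, Hacd2 and Efemp2 held neither motif. For Runx1 2 starts are listed and only the first was searched, and which start these cells use was not tested. RefSeq windows were matched by symbol for 373 of the 489 tested genes. In 320 of these (85.8%) the 20 bases from the start were found in a GENCODE transcript of the gene. TGANTCA was in 1 of 21 gradual rises and 1 of 21 gradual falls that had a window (4.76% each), beside 4.02% of tested genes and 6.87% of 27025 genes. CAGGTG was in 3 of 21 of each (14.3%), beside 15.3% and 17.1%. These shares lie close to the background, and a match is a string of letters, with no binding measured.

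The largest early and late changes show what gradual genes were set apart from. Actn3, alpha-actinin 3 of fast muscle fibres, held 13.7 CPM in shScramble, 67 in shRcor2-18 and 74.6 in shRcor2-20 at 0h, 436, 771 and 867 CPM at 24h and 853, 1026 and 1264 CPM at 7d, a log2 change of 4.67 ± 0.36 (SE), adjusted p = 2.51e-05. Its 24h libraries were already far above 0h, with 87% of the log2 change present, and they overlapped the 7d range only at its lower end. Adamts1, a secreted metalloprotease that cleaves versican, and Lrp5, the Wnt co-receptor whose loss lowers bone mass, were early as well, with log2 changes of 3.16 ± 0.28 and 1.61 ± 0.11 (SE). Cebpd, a C/EBP factor induced by glucocorticoids, rose by 1.33, all of it by 24h. Hes1, a repressor downstream of Notch, dropped from 193 to 241 CPM to 8.61 to 31.3 CPM within a day and stood at 15.9 to 44.5 CPM at 7d. Pla1a, a phospholipase of phosphatidylserine, rose early by 2.01, and Ccdc80, a secreted matrix protein, had fallen early to a log2 change of -1.33.

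Late changes came mostly after the first day, as a change at an even pace would. Abat, the GABA transaminase of mitochondria, held 48.9 to 86.1 CPM at 0h, 44.9 to 114 CPM at 24h and 309 to 456 CPM at 7d, a log2 change of 2.52 ± 0.31 (SE), adjusted p = 0.000248. Crybg3, a beta-gamma crystallin domain protein, rose late by 1.78 ± 0.20 (SE). Cst6, a secreted inhibitor of cysteine proteases, was the largest late loss, from 121 to 327 CPM to 7.62 to 48.2 CPM, with a log2 change of -2.47 ± 0.66 (SE), adjusted p = 0.0264. Its call was lost in 8 of 28 other settings, among them leaving out any one of the 0h libraries.

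**Figure D4:**
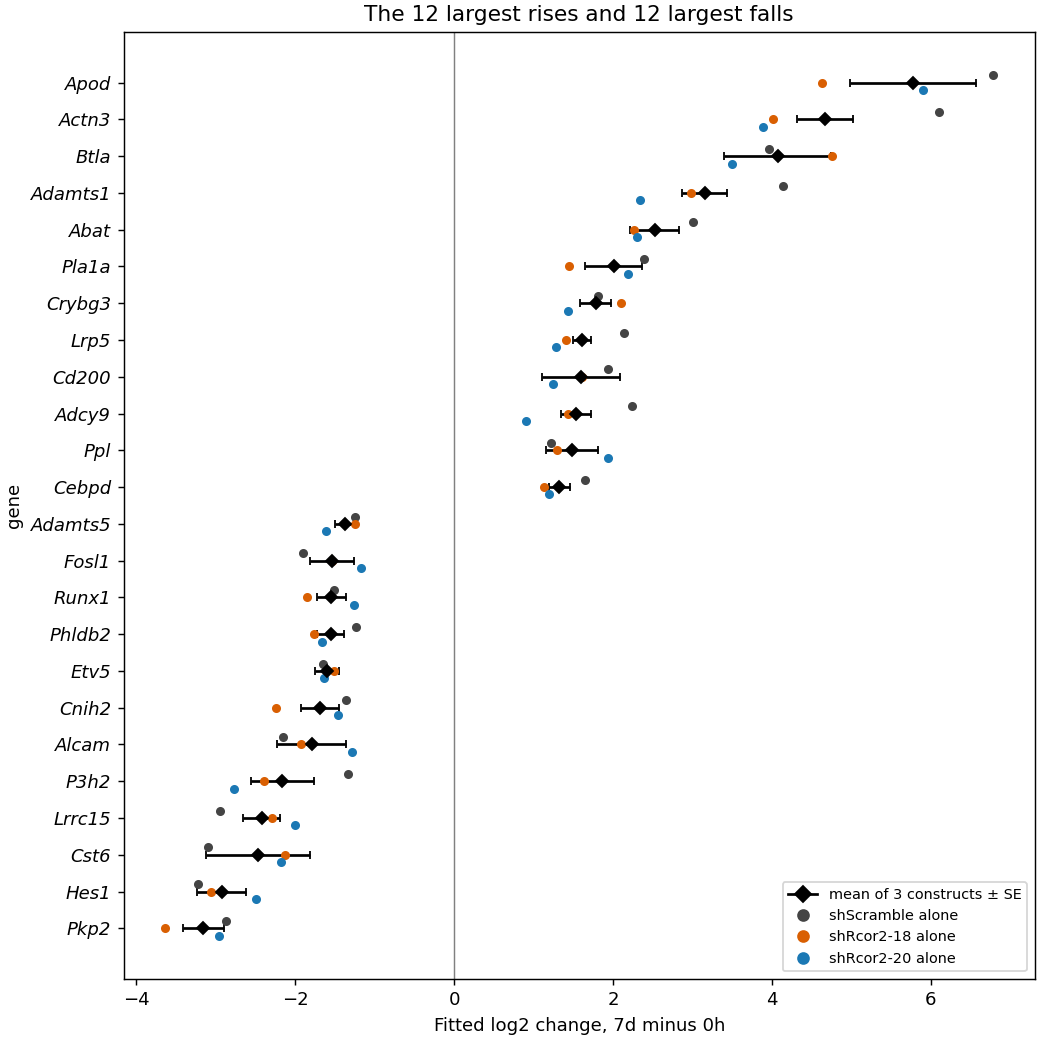
Fitted log2 change from 0h to 7d of the 12 largest rises and 12 largest falls among genes that passed the naming rule, as the mean over 3 constructs with its standard error (diamonds and bars) and for each construct alone (coloured points). All 3 constructs lie on the same side of 0 for each of the 24 genes, which the naming rule sets by asking for no overlap of 7d and 0h. The largest rise of Apod, Actn3 and Adamts1 is that of shScramble.

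The net change was in the same direction in the 3 constructs for these genes but not of one size. For Actn3 it was 6.10 in shScramble, 4.01 in shRcor2-18 and 3.89 in shRcor2-20, where the 0h library of shScramble, at 13.7 CPM, was the lowest. For Pkp2 it was -2.87, -3.64 and -2.96, and for Fosl1 -1.90, -1.54 and -1.17. Tested as an interaction, no gene (0%) had a net change that differed between the hairpins and shScramble, with 22 at an unadjusted p under 0.05. DESeq2 also called 0, with 23 at an unadjusted p under 0.05. With a replicate block 1 gene was called, Serpind1, a plasma serpin, which was listed at 0 in some libraries and at up to 341 CPM in others of the same time, so its fitted difference carries no usable size. A p that misses the threshold does not show that the constructs changed alike, and the median SE of this difference was 0.31 on the log2 scale.

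Levels at 7d paired libraries of different constructs. Over 432 genes of at least 100 CPM, the SD of the log2 ratio was 0.20 to 0.22 within 3 pairs: shScramble sample 1 with shRcor2-18 sample 1, shScramble sample 2 with shRcor2-20 sample 1, and shRcor2-18 sample 2 with shRcor2-20 sample 2. The samples of 1 construct differed by 0.34 to 0.48. Apod at 7d was 1374 and 1116 CPM in the first pair, 6021 and 5438 in the second and 3369 and 3755 in the third. Cd200 was 3672 and 3697, then 2326 and 2534, then 1209 and 1138 CPM, and Btla followed the order of Cd200. In another setting the 7d libraries, and the 24h libraries of the same construct and sample number, were summed by these pairs. The model then held time alone, and the 0h libraries were not summed. There 109 genes were called at 7d versus 0h and 18 at 7d versus 24h, so the second step moved far more than the net change. Closeness was measured at 7d only, and the parts of the summing and of the model were not told apart. What the paired libraries share is not given in the labels, and its part in the result was not tested.

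The left-out 0h libraries of sample 1 gave a look at values that the comparison did not use. They differ in make-up: the stretches took 19.2% to 19.8% of their counts, beside 11.3% to 12.5% in the 15 libraries fitted. The part of this difference in the values below was not tested. Of the 106 called genes without overlap, 82 had all 3 of these libraries outside the 7d range on the 0h side, and so did 38 of 49 gradual genes. Over all tested genes, called or not, 157 had no overlap, and 106 of these 157 had the 3 libraries on the 0h side. Those 106 are 21.7% of all 489 tested genes, while the 82 are 67.2% of the 122 called genes. Pkp2 stood at 289.5, 268 and 327 CPM there, Apod at 3.86, 7.57 and 24.2 CPM and Fosl1 at 2366, 2204 and 1694 CPM, scaled over all 18 libraries. Alcam stood at 486, 439.6 and 1226 CPM, and the second of these values lies inside its 7d range of 102 to 452 CPM on that scale. Of the other gradual genes named above, Adamts5, as given, Ppl, at 102, 72.2 and 68.2 CPM with a 7d range from 93.6 CPM, and Socs1, at 289.5, 316 and 338 CPM with a 7d range from 338 CPM, also had a left-out library inside the 7d range.

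Many calls rest on the single 0h library of a construct. Of 68 named genes that were called, 34 lost the call without one or another of these 3 libraries, and 7 lost it without each of them in turn: Cd200, Cst6, Ifngr2, Pitpnm1, Rad9a, Rhod and Snai2. Without that of shScramble 26 were lost, the others being Alcam, Batf2, Carns1, Cdca5, Cfl1, Doc2g, Eif1ad, Eif4a2, Fam162a, Fstl1, Mcm4, Nde1, Nubp1, Pola2, Psmd2, Sart1, Slc25a1, Tm7sf2 and Ubn1. Without that of shRcor2-18 19 were lost, the others being Alcam, Bach1, Eif4a2, Il10rb, Itgb5, Litaf, Mcm4, Mrps6, Nde1, Nubp1, Pola2 and Scarf2. Without that of shRcor2-20 17 were lost, the others being Bach1, Batf2, Clcf1, Cpt1a, Doc2g, Fam162a, Il10rb, Mrps6, Scarf2 and Slc25a1. Apod, Btla, Pkp2, Lrrc15, Etv5, Runx1, Fosl1 and Actn3 were called without any one of the 3.

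By role, 263 tested genes fell into 23 lists, with 29 called higher, 44 lower and 190 not called, and their median change was 0.01, beside 0.02 for all tested genes. The lists were put together with earlier results of these data known, so their shares are descriptions only. Each list is to be set beside all tested genes, of which 24.9% were called, 11.2% higher and 13.7% lower. Of 18 matrix and secreted protease genes, 6 rose and 7 fell, with a median of -0.36: Apod, Adamts1, Pla1a, Col8a1 and Fstl1 were among the rises, and Lrrc15, P3h2, Adamts5, Ccdc80 and Efemp2 among the falls. Ltbp3, which stores latent TGF-beta, and Masp1, a complement protease, did not pass, at -0.49 and -0.42. Of 24 transcription factors, 3 rose (Cebpd, Batf2 and Tfap4) and 10 fell, with a median of -0.27. Trp63, the epithelial p53 relative, had a log2 change of 0.88 with an adjusted p of 0.0575.

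Growth factor and receptor signalling genes numbered 20, of which 3 rose and 5 fell, with a median of -0.03. Adcy9 and Cblb, a ubiquitin ligase that restrains receptor kinases, were the larger rises, and Etv5, Clcf1, the kinase Tnk2 and the Ras effector Rin1 were the larger falls. In the Wnt, Notch and BMP list 3 of 12 rose (Lrp5, Fstl1 and the scavenger receptor Scarf2) and 1 fell, Hes1, with a median of 0.13. Chrd, the BMP antagonist chordin, had a log2 change of 0.63 and did not pass. Of 15 muscle and contractile genes, 2 rose (Actn3 and Mylk) and 3 fell (Phldb2, the actin-severing Cfl1 and the small GTPase Rhod), with a median of 0.01. Of 12 junction and adhesion genes, 2 rose (Ppl and the catenin Arvcf) and 3 fell (Pkp2, Alcam and the integrin chain Itgb5), with a median of -0.12. The shares called were 40% in the growth factor list and 33.3% in the Wnt, Notch and BMP list. They were 33.3% in the muscle list and 41.7% in the junction list, beside 24.9% of all tested genes.

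Few genes of proliferation were called. Of 19 DNA replication and repair genes 3 fell and none rose, with a median of -0.14: Mcm4, a subunit of the replicative helicase, went from 3567 to 5421 CPM to 1538 to 2882 CPM (log2 change -0.90 ± 0.26 SE), Pola2, a subunit of DNA polymerase alpha, had -0.70 ± 0.19, and Rad9a, of the checkpoint clamp, had -0.50 ± 0.16. All 3 were gradual. Rad9a lost its call in 15 of 28 other settings, Mcm4 in 12 of 29 and Pola2 in 6 of 27. Prkdc, the DNA-dependent protein kinase, had a log2 change of 0.26 and did not pass. Of 12 genes of mitosis 2 fell, Cdca5, which keeps sister chromatids together, and Nde1, a dynein partner, both late, and 10 did not pass, with a median of -0.17. The 4 genes listed under nucleotide synthesis did not pass. That list is wider than its name, since it holds Slc29a2, a nucleoside transporter, at 0.76. These shares, 3 of 19 and 2 of 12, lie near the 13.7% of all tested genes called lower.

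In the lists of energy use and housekeeping the calls went both ways. Of 21 mitochondrial respiration and import genes, 3 rose (Fam162a, Trap1 and Mrps6) and 1 fell, Slc25a1, the citrate carrier. Of 11 fuel catabolism genes, Abat and Carns1, which makes carnosine, rose, and Cpt1a, the carrier enzyme of fatty acid oxidation, fell. In the lipid and sterol list 3 of 9 rose (Apod, Pla1a and Hacd2) and 2 fell (Tm7sf2, a sterol reductase, and Pitpnm1). The redox list had 2 falls among 10, Abcc1, an efflux pump of glutathione conjugates, and Bach1, the heme-regulated repressor, and no rise. Translation had 1 rise and 1 fall among 15, folding 1 and 1 among 12, chromatin 1 and 1 among 16, and glycosylation and axon guidance none among 12 and 5. The interferon list had 2 rises (Batf2 and Socs1) and 2 falls (Il10rb and Ifngr2) among 11, the lysosome list 1 fall (Litaf) among 7, and the iron and heme list 1 fall (Nubp1) among 4. The immune surface list had 2 rises among 7, Btla and Cd200, with Cd80 at 0.31 and not called. The shares called were 19% in the mitochondrial list, 27.3% in fuel catabolism, 55.6% in lipids and 20% in redox. They were 36.4% in the interferon list, 25% in iron and heme and 28.6% in immune surface, beside 24.9% of all tested genes. The median log2 change was 0.11 in the mitochondrial list, 0.34 in fuel catabolism, 0.04 in lipids, -0.05 in redox, 0.11 in translation, 0.06 in folding and -0.01 in chromatin. It was 0.17 in glycosylation, -0.23 in axon guidance, -0.18 in the interferon list, 0.15 in the lysosome list, -0.07 in iron and heme and 0.86 in the immune surface list. Exons of Carns1, Nubp1 and P3h2 overlap other annotated genes over 45.9%, 36.9% and 28.4% of their length, so some of their reads cannot be told apart from those of their neighbours.

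**Figure D5:**
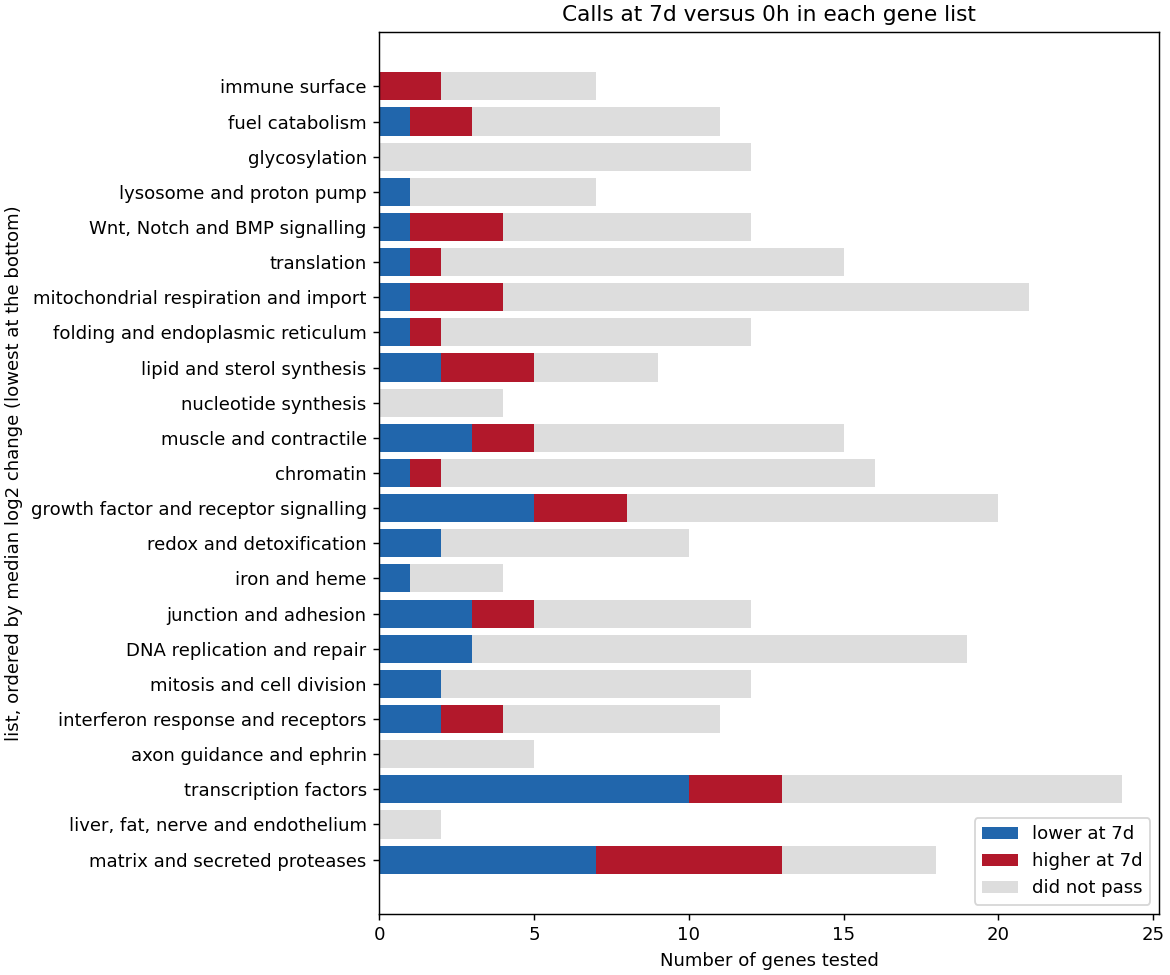
Number of tested genes in each of 23 lists that were lower at 7d, higher at 7d or did not pass, with lists ordered by their median log2 change. Matrix and secreted proteases (13 of 18) and transcription factors (13 of 24) hold the most calls, and glycosylation, nucleotide synthesis, axon guidance and the other tissues hold none. Of all tested genes 24.9% were called.

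Markers of other cell types were followed beside these changes. The 4 skeletal muscle genes summed to 334 to 384 CPM at 0h and 1638 to 1934 CPM at 7d, with 1 of 3 tested called (Actn3). Of the smooth muscle pair Mylk rose, while Myh11, the defining myosin, stood at 43 to 80.4 CPM at 0h and 29.5 to 46.1 CPM at 7d. The 7 epithelial genes summed to 2175 to 2927 CPM and then 3325 to 5140.1 CPM, with Ppl higher and Pkp2 lower. Most of that sum was Trp63, which was not called, at 1551 to 2173 CPM at 0h and 2896 to 4765 CPM at 7d. The 8 lymphocyte and macrophage genes summed to 1723 to 1918 CPM and then 2236 to 2720.5 CPM. Most of that sum was Cd80, at 1342 to 1561 CPM at 0h and 1463 to 2001 CPM at 7d. Ptprcap stood at 313 to 353 CPM and then 305 to 449 CPM. Hcls1 stood at 1.96 to 5.74 CPM and then 3.81 to 36.4 CPM, and Tbc1d10c at 13.7 to 21.95 CPM and then 16.4 to 43.3 CPM. Cd80, Ptprcap, Hcls1 and Tbc1d10c were not called. Beside the rise of Btla, Cd86 had no count in the 9 libraries, and Cd96 and Tnfrsf17 had 3 and 4 counts in all. Cldn5 of endothelium, Hrg of liver and Olig1, Olig2 and Ncam2 of nerve had no count in the 9 libraries, and Adipoq of fat had 7. Other liver genes were present: Fetub stood at 165 to 190 CPM at 0h and 45.6 to 280 CPM at 7d. Serpind1 stood at 0 to 255 CPM at 0h and 0 to 341 CPM at 7d, and neither gene was called. The nerve genes Gap43, Tagln3 and Grik1 had 29, 16 and 7 counts in all.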

How the data were processed

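RNA of 18 libraries was sequenced as 100 bp reads. Raw counts per gene were deposited by the authors in 1 table. FastQC, TopHat2 2.0.9, mm9, DESeq and DESeq2 are named per the submitters' processing notes, which do not name the counting program, the strand setting or the annotation. Identifiers were matched to GENCODE vM21. Of 23 stretch genes from families that nearly all cells express, 22 reached a mean of 20 CPM (95.7%), beside 67 of 375 (17.9%) elsewhere. For this check alone CPM was scaled to the whole library and averaged over the 18 libraries. Sod1, also broadly expressed, stood at only 16.4 to 108 CPM on the scale of the stretch genes, which gives higher values than that of the check. The members and lists were chosen with earlier results of these data known.

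The deposited counts of 15 libraries (without 0h sample 1) were fitted with edgeR 4.0.16 in R 4.3.3 (filterByExpr, TMM, robust quasi-likelihood F tests, two-sided, 9 group means, 6 residual degrees of freedom). The net change is 7d minus 0h within each construct, averaged over 3 constructs. P-values were adjusted by Benjamini-Hochberg over all 489 genes, with a threshold of 0.05, and measure the spread between samples that may be technical. SE is the absolute log2 change over the square root of F. Alternatives included DESeq2 1.42.0, other scalings and filters, and leaving out each library. Sample numbers were taken as pairing 24h and 7d samples of a construct, since deviations from the group mean correlated at 0.24 to 0.45 in all 3 pairs. Some sample 1 libraries of different constructs correlated about as well. The value was 0.29 for shScramble at 24h with shRcor2-18 at 7d, and 0.25 for the reverse. The other such values ran from -0.14 to 0.11. A correlation of this size was thus also found outside the assumed pairs. The replicate block and the summing by pairs rest on this choice, which could not be checked at 0h.

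Genes were named by rule: 5 given with the comparison; the 12 largest rises and 12 largest falls called, with a mean of at least 20 CPM and no overlap of 7d and 0h; the 10 largest gradual rises and falls likewise; and leading called and not called members of each list. Arhgap31, Ccdc80, Ccdc85b, Efemp2 and Tfap4 were named after their values were seen.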

Additional observations from a re-analysis of the deposited data

Results flagged for a closer look

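Among 134 named genes, 3 had a library at 7d that stood far from the other 5 by Dixon's criterion, at its usual level. Chance alone marks about 1 in 20 such groups. Etv5 was highest in shRcor2-18 sample 2, at 337.1 CPM, with the next library at 257.1 CPM, and that value still lay below every library at 24h and 0h. Mrpl49, a mitochondrial ribosomal protein, was lowest in shRcor2-20 sample 1, at 383.9 CPM, beside 594.1 CPM in the next. Robo1, a receptor for Slit ligands, was highest in shScramble sample 2, at 18.7 CPM, beside 4.189 CPM in the next, which is a matter of few counts.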

How the results depend on the processing

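The alternatives numbered 31, some of which changed only the rule for gradual genes. In those with a new fit, at most 29 for any gene, none of the 68 named genes that were called changed sign. Of the 66 that were not called 10 did in at least 1 setting: Adprh, Boc, Cpox, Cxadr, Fetub, Igf2bp2, Myh11, Pcyt1a, Serpind1 and St6gal1. Of the named genes that were called, 31 kept the call in every setting run and 37 lost it in at least 1. The count at 7d versus 0h fell from 122 to 58 when all rows of the table were tested together, and ran from 64 to 126 with 1 library left out; the lowest was without the 0h library of shScramble. The count at 24h versus 0h, 28, was 62 with all 18 libraries, 57 with a replicate block, 13 with all rows together, and 11 to 32 with 1 library left out, the lowest without the 0h library of shRcor2-18. The count at 7d versus 24h, 83, was 154 with the replicate block, 18 with partner libraries summed, 22 with all rows together, and 41 to 85 with 1 library left out; 41 came without sample 2 at 7d of shRcor2-18 or of shRcor2-20, and 43 to 47 without shScramble 24h sample 2 or either shRcor2-20 24h sample. The difference between hairpins and shScramble, 0, was 1 with the replicate block. Gradual genes, 56, were 86 with all 18 libraries, 30 with all rows together, 91 with bounds of 10% and 90%, 8 when both steps had to be called, and 33 to 64 with 1 library left out. The block changed no other count by over 1.5 times. The cause was not tested, apart from the wider or narrower bounds themselves. With 3 libraries at 0h, 1 for each construct, the spread at 0h is borrowed from the other times.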

Other observations

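Some genes outside the called set had patterns that the net change hides. St6gal1, a sialyltransferase, rose 1.69 on the log2 scale by 24h (adjusted p = 0.0391) and fell by 1.14 after it (adjusted p = 0.0323), and its net change of 0.55 was not called. Masp1 fell by 0.78 after 24h (adjusted p = 0.00518), with a net change of -0.42 that was not called. Robo2, a receptor for Slit ligands, ran from 123 to 191 CPM at 0h and from 197 to 1586 CPM at 7d, with a net change of 1.97 that was not called (adjusted p = 0.0711). Fbxo40, a ubiquitin ligase of skeletal muscle, ran from 53.6 to 82.1 CPM at 0h and from 126 to 585 CPM at 7d, and its net change of 2.34 was not called either (adjusted p = 0.0528).

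Direction differed by stretch. The median net change was 0.05 over 373 genes of chromosome 16 and -0.09 over 116 genes of chromosome 19, whose longest coding transcripts have a median GC content of 49% and 56.7%. Within the third of genes with the highest GC content, 11 of 70 rose and 5 fell on chromosome 16, and 6 of 92 rose and 22 fell on chromosome 19. Across 486 genes, Pearson's r of net change and GC content was -0.07 and Spearman's rho -0.14; genes are not independent replicates.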
